A study of Homo sapiens with 4 samples.

Results

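The vitamin D receptor gene VDR, its target CYP24A1, the retinoid X receptor genes RXRA and RXRB, the 3 peroxisome proliferator-activated receptor genes PPARA, PPARD and PPARG, the PPAR target ANGPTL4 and the estrogen-related receptor gene ESRRA were followed in prostate cancer cells with ESS2 knockdown. These 9 genes, of 25121 with a symbol on the array, were chosen by name together with all of their 14 probes, and VDR had been picked because its signal was lower after knockdown in both cell lines. Their knockdown ratios are therefore a description and carry no test. RNA of 4 cell populations was measured on 1-colour (Cy3) Agilent expression arrays. PC3 and DU145 are established human prostate cancer lines that grow without androgen, and each was given an shRNA against luciferase (PC3-shC and DU145-shC) or an shRNA against ESS2, a nuclear protein studied as a transcriptional coregulator (PC3-shESS2 and DU145-shESS2). All 4 populations were grown in RPMI1640 with serum, and the labels name no added receptor ligand. The labels describe lentiviral transduction, the methods describe a plasmid with puromycin selection for PC3, and how many clones each population holds is not given in the sources used here.

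Each condition had 1 array, so no difference below has a replicate check, and precision is limited by having so few arrays. In bulk RNA, fewer cells of a type and less RNA per cell cannot be told apart. Signals are background-subtracted spot intensities, and ratios compare the log2 signals of 1 probe after subtraction of each array's 75th percentile. The spots of probes printed 10 times gave a median SD of the log2 ratio of 0.084 in PC3 (n = 286 probes) and 0.0821 in DU145 (n = 283 probes), rising to 0.203 (n = 7) and 0.246 (n = 9) for signals under 100. That SD covers neither the hybridization nor the cells. Both PC3 arrays came from 1 slide and scan and both DU145 arrays from another, so cell line, slide and scan cannot be told apart. The 75th percentile of the signal ranged from 212 to 290 and the share of spots well above background from 50.8 to 52.6%. The epithelial markers KRT8, KRT18, EPCAM and CDH1 were well above background on all arrays, and KLK3, the prostate-specific antigen gene, on none. EPCAM was 6.11-fold lower in DU145-shESS2 than in DU145-shC cells. Among 7 markers of other cell types on the array, 2 to 4 were well above background and their summed signal was 685 and 298 in PC3-shC and PC3-shESS2 cells and 135 and 142 in the DU145 pair. The endothelial gene PECAM1 went from 338 to 16.4 within the PC3 pair and was not well above background in DU145, and its part in the results was not tested.

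The targeted gene was lower in both knockdown populations. ESS2 gave signals of 133 in PC3-shC and 53.6 in PC3-shESS2 cells, a 2.74-fold lower level, and 85.7 in DU145-shC and 17.3 in DU145-shESS2 cells, a 5.09-fold lower level. With normexp, another background correction, the ESS2 log2 ratios were -0.90 in PC3, under 2-fold, and -1.13 in DU145, against -1.45 and -2.35 here. The reference genes GAPDH and ACTB had log2 ratios between -0.04 and 0.18.

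VDR and the PPARs bind DNA as pairs with a retinoid X receptor, the common partner that RXRA, RXRB and RXRG encode. VDR binds the active form of vitamin D and induces CYP24A1, the enzyme that breaks vitamin D down. PPARs are fatty acid sensors: PPARA promotes fatty acid oxidation, PPARD is broadly expressed and PPARG directs fat storage, and ANGPTL4, a secreted inhibitor of lipoprotein lipase, is a common PPAR target. ESRRA is an orphan receptor that binds as a monomer or dimer and regulates mitochondrial genes. The half-site AGGTCA, single or in repeats, is the DNA word that most of these receptors read.

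The receptors' own genes were searched for this word. RefSeq windows of the 250 bases before a start site (GRCh38.p14) were searched for 7 of the 9 genes, VDR and CYP24A1 not among them, 15 windows in all. AGGTCA, searched on both strands, occurred, among these 7, in windows of PPARG alone, in 3 of its 6, a pair of which overlap and share 1 match, and in 12.1% of 35116 windows of all genes. In the first PPARG window below it began 217 and 184 bases before the start site, and in the stretch before a later start it began 14 bases before. The single PPARD window is shown beside them, as PPARD was higher after knockdown in both lines while PPARG was lower, and capitals mark AGGTCA in PPARG and the GC box GGGCGG in PPARD.
PPARG, chr3:12287118-12287367, plus strand: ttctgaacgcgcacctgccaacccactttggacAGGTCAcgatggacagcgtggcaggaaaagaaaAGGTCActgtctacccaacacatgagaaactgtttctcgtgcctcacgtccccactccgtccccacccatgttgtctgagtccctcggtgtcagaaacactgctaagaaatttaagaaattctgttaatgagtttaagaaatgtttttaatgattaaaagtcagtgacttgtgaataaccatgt
PPARG, chr3:12289000-12289059, plus strand: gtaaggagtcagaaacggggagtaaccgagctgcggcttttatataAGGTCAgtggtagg
PPARD, chr6:35342308-35342557, plus strand: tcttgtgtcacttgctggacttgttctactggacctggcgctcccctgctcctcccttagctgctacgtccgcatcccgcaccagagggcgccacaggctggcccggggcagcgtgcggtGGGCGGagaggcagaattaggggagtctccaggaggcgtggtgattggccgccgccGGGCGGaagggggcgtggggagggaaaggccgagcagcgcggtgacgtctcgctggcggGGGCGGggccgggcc
The PPARD window had 3 GC boxes and no half-site. GGGCGG, on either strand, stood in 8 of the 15 windows, those of ANGPTL4, ESRRA, PPARA, PPARD, RXRA and RXRB, and in 42.6% of all windows. The longer words TCAAGGTCA, which an estrogen-related receptor reads, and AGGTCANAGGTCA and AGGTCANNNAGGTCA, repeats spaced for PPAR and VDR pairs, all contain AGGTCA and were in none of the 15 windows and in 0.319, 0.0171 and 0.0057% of all. These are matches of letters, and binding was not measured.

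VDR was lower in both knockdown populations. Its only probe, A_23_P162589, gave 6240 in PC3-shC, 2360 in PC3-shESS2, 549 in DU145-shC and 272 in DU145-shESS2 cells. Both PC3 levels were thus above both DU145 levels, and each knockdown level was below its own control. The PC3 ratio was -1.54 on the log2 scale, 2.92-fold lower, and 254 genes, 1.52% of those compared, had a ratio as low. The DU145 ratio was -1.05, 2.08-fold lower, and 359 genes, 2.13%, were as low. Of 15462 genes compared in both lines, 16 (0.103%) were at least as low as VDR in each, against 39 (0.252%) lower past 2-fold in both. VDR had been picked for being lower in both lines, so its rank is a description. The DU145 value stood close to the 2-fold line and was -0.90 with normexp.

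CYP24A1, the vitamin D target, could be followed in DU145 alone. Its brighter probe read 381 in DU145-shC and 153 in DU145-shESS2 cells, and 4.36 and 9.17 in PC3-shC and PC3-shESS2 cells, where neither value was well above background. The second probe read 250 and 77.5 in the DU145 pair and 1.81 and 1.86 in the PC3 pair. Both probes therefore placed the gene lower in DU145-shESS2 than in DU145-shC cells, by 2.56-fold (log2 ratio -1.36, 1.16% of genes as low) and 3.32-fold (-1.73). No fold is given for PC3. VDR and CYP24A1 were thus both lower in the DU145 knockdown, whereas in PC3, where VDR was far brighter than in DU145, its target was not measurable on these arrays. With the active form of vitamin D added, the paper reported by RT-qPCR a weaker induction of CYP24A1 in PC3-shESS2 than in PC3-shC cells.

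**Figure D1:**
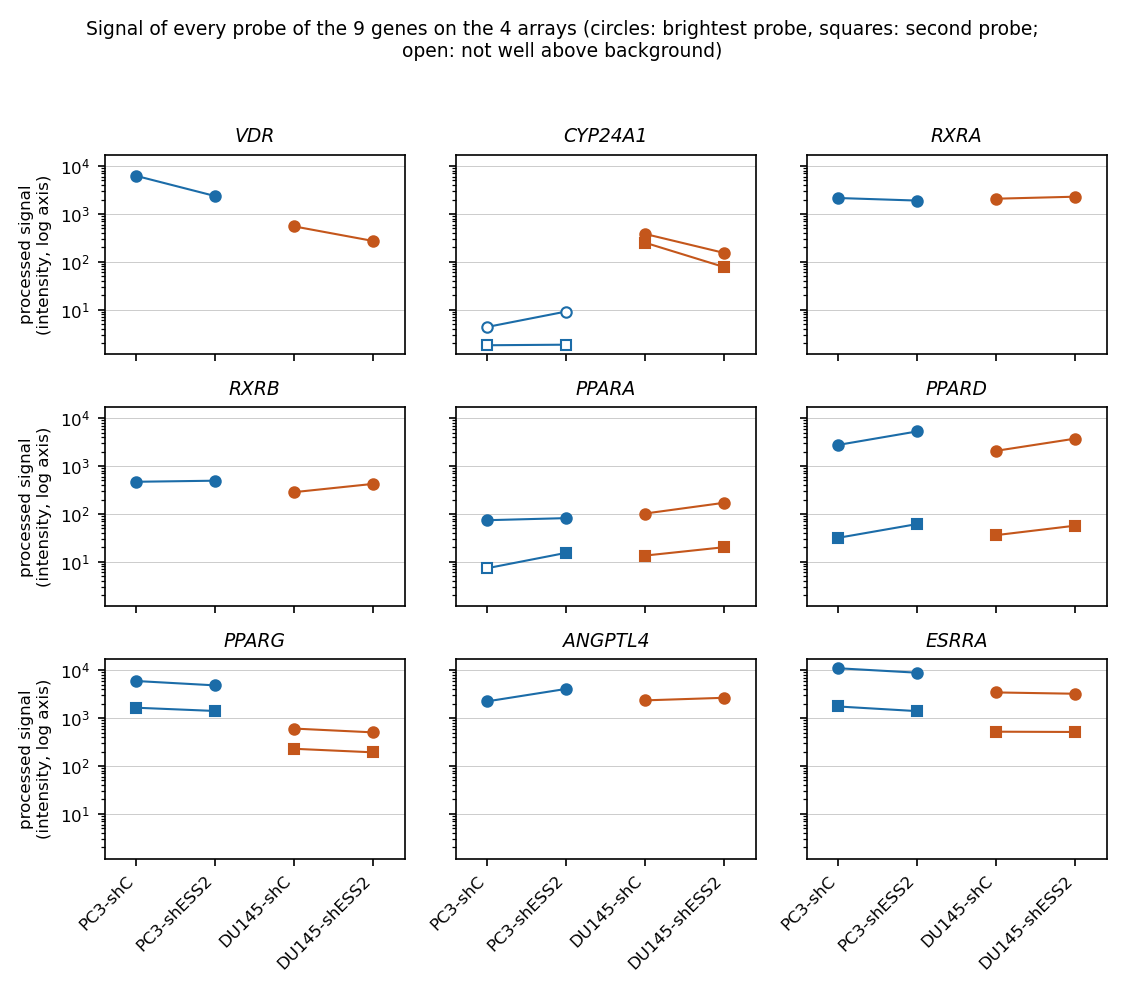
Processed signal (intensity, log axis) of each probe of the 9 genes on the 4 arrays, PC3 in blue and DU145 in orange, with lines joining control and knockdown, circles for the brighter probe, squares for the second and open symbols for values not well above background. VDR is lower after knockdown in both lines, PPARD is higher in both by either probe, and CYP24A1 is dim in PC3.

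The retinoid X receptors moved little in PC3, and RXRB was higher in DU145. RXRA gave 2150 and 1900 in PC3-shC and PC3-shESS2 cells and 2080 and 2290 in the DU145 pair. Its log2 ratios were -0.32 and 0.10, the second close to the SD between spots. RXRB gave 469 and 494 in the PC3 pair and 285 and 424 in the DU145 pair, with ratios of -0.07 and 0.53. In PC3 the sign of the RXRB ratio turned with the authors' scaled values (0.02), so no direction is given there. RXRG, the remaining family member and no member of the chosen 9, gave 24.6, 21.4, 21.3 and 18.7 by its brighter probe, and its other probe was not well above background on any array.

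The 3 PPAR genes went different ways. PPARD, the broadly expressed receptor, gave 2760 in PC3-shC, 5290 in PC3-shESS2, 2080 in DU145-shC and 3740 in DU145-shESS2 cells, and both knockdown levels lay above both control levels. The log2 ratios were 0.80 (1.74-fold higher, 6.12% of genes as high) and 0.81 (1.75-fold, 3.88% as high). The second PPARD probe read 31.7, 61.5, 36.1 and 56.9, with ratios of 0.82 and 0.62. Both probes thus gave a higher level in both lines, and 100 genes, 0.647% of those compared in both, were as high as PPARD in each.

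PPARG, the fat-storage receptor, was lower in both knockdown populations by less than 2-fold. Its brighter probe read 5960, 4830, 605 and 504 in PC3-shC, PC3-shESS2, DU145-shC and DU145-shESS2 cells, and the second probe 1650, 1410, 229 and 193. The log2 ratios were -0.44 and -0.37 in PC3 and -0.30 and -0.29 in DU145, so the probes differed from each other by no more than the SD between spots. A ratio as low as that of PPARG in both lines was common, at 697 genes or 4.51%.

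PPARA, which promotes fatty acid oxidation, was higher in DU145 alone by its brighter probe. That probe gave 73.9 and 81.7 in the PC3 pair and 102 and 171 in the DU145 pair, with log2 ratios of 0.00 and 0.71. The dimmer probe read 7.35, not well above background, and 15.4 in the PC3 pair, a difference of at least 1.56-fold, and 13.5 and 20.2 in the DU145 pair, a ratio of 0.54. The probes of PPARA disagreed in PC3, and no direction is given for it there.

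ANGPTL4, the PPAR target, was higher in PC3-shESS2 than in PC3-shC cells. It gave 2240 and 4080 in the PC3 pair and 2350 and 2660 in the DU145 pair. The log2 ratios were 0.72 (1.65-fold, 7.21% of genes as high) and 0.14. Whether the ratio differed between the lines could not be tested with 1 array per condition. Within PC3, ANGPTL4 and PPARD were higher and PPARG was lower.

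ESRRA, the orphan receptor, was lower in PC3-shESS2 than in PC3-shC cells by less than 2-fold. It read 11000 and 8880 in the PC3 pair and 3440 and 3230 in the DU145 pair, and its second probe 1750, 1400, 521 and 514. The log2 ratios were -0.45 and -0.46 in PC3 and -0.13 and -0.06 in DU145. Both probes gave about the same ratio in PC3, and the DU145 ratios were closer to 0. ESRRB was well above background in PC3 alone, at 12.2 and 16.8, and ESRRG on no array.

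**Figure D2:**
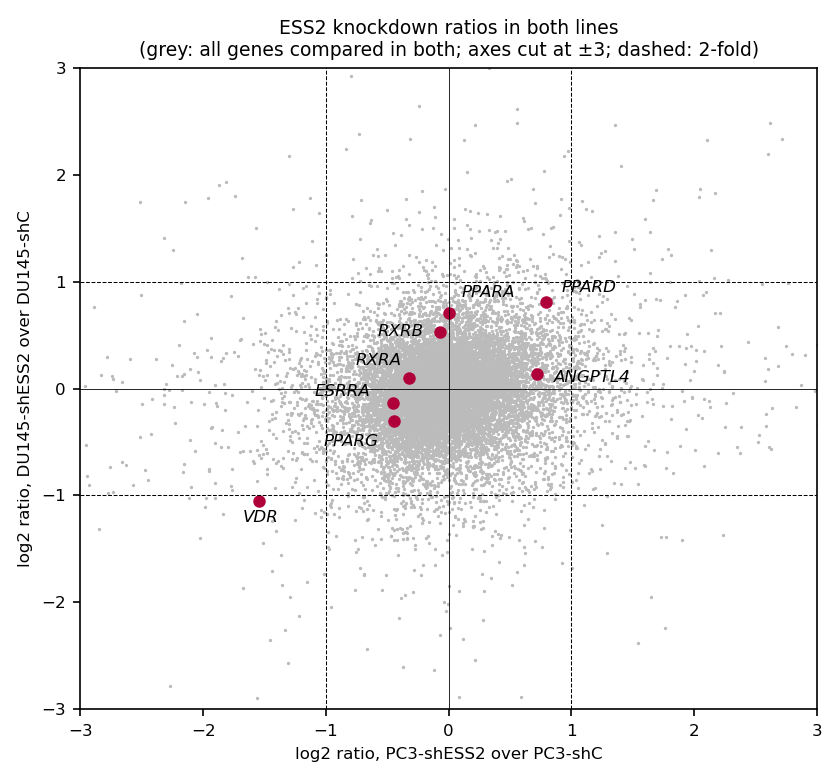
Log2 ratio of knockdown over control in PC3 (x axis) and DU145 (y axis) for the genes compared in both lines (grey), with 8 of the 9 genes in red and dashed lines at 2-fold. VDR (-1.54 and -1.05) is the only one past 2-fold in both lines, PPARD (0.80 and 0.81) lies up and right, and CYP24A1 is left out because it was dim in PC3.

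Past 2-fold, 1 of the 8 genes compared in PC3 was lower (VDR) and 0 were higher, beside 3.87% of all 16751 genes lower and 3.88% higher. In DU145, 2 of 9 were lower (VDR and CYP24A1) and 0 higher, beside 2.47% of all 16826 genes lower and 2.36% higher. The genes were chosen with these ratios known, so nothing is read from the shares. The median ratio of the members was -0.19 in PC3 and 0.10 in DU145, beside -0.06 and -0.02 over all genes compared. Across the alternative settings of the gene's value, single probes aside, VDR ranged from -1.65 to -1.42 in PC3 and from -1.13 to -0.90 in DU145, CYP24A1 from -1.54 to -1.01 in DU145, and PPARD from 0.69 to 0.89 and from 0.71 to 0.84.

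The control populations differed from each other most in VDR, PPARG and CYP24A1. VDR was 9.16-fold higher in PC3-shC than in DU145-shC cells (log2 ratio 3.20) and PPARG 7.94-fold higher (2.99). CYP24A1 was at least 52.9-fold lower in PC3-shC cells, a bound that shrank to a log2 ratio of -2.92 with normexp. VDR and its target thus stood in opposite order in the control populations. ESRRA was 2.58-fold higher in PC3-shC cells (1.37), and stayed above 0 but under 2-fold with quantile normalization (0.84) and with the authors' values (0.92). PPARA was 1.71-fold lower (-0.78), and past 2-fold with the authors' values (-1.23). Its ratio shrank to -0.56 with quantile normalization, -0.53 with normexp and -0.32 with median scaling. The ratios of RXRA (-0.26), RXRB (0.41), PPARD (0.10) and ANGPTL4 (-0.38) turned sign under at least 1 setting, so they have no settled direction. In all, 3 of the 9 were higher and 1 lower past 2-fold, beside 22.2% and 20.0% of all 17410 genes. Scaling moved the median over all genes from 0.13 to 0.58 with median scaling and to -0.34 with the authors' values. Of the genes past 2-fold, 52.6% were higher in PC3-shC cells in the main setting, 72.1% with median scaling and 31.7% with the authors' values. The knockdown ratios share these control arrays.

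The genes around these receptors were described from 6 lists of 123 further genes, of which 93 were compared in each line. In PC3, 5 were higher and 9 lower past 2-fold, beside 3.88% and 3.87% of all genes, and in DU145 7 were higher and 3 lower, beside 2.36% and 2.47%. The number past 2-fold in the same direction in both lines was 0, and of all genes compared in both lines 0.265% were higher and 0.252% lower, so 0 is near the background share for lists of this size. The median ratio of the lists together was -0.19 in PC3 and 0.12 in DU145, and over all genes -0.06 and -0.02.

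VDR targets went both ways in PC3, with 4 higher and 3 lower past 2-fold of 17 compared. In all 11 of the 17 were below 0, beside 55.7% of all genes, and the median was -0.47. CD14, a coreceptor for bacterial lipopolysaccharide, went from 221 to 54.7 (-2.16), and IGFBP3, which binds insulin-like growth factors, from 2510 to 643 (-2.11). The gluconeogenic enzyme gene FBP1 went from 1620 to 848 (-1.07). Against these, the phosphatase gene DUSP10 went from 50.6 to 177 (1.67), the cell cycle inhibitor gene CDKN1A from 73.2 to 198 (1.29) and the stress gene GADD45A from 1190 to 3070 (1.23). The fourth, the calcium channel gene TRPV5, was at least 2.18-fold higher, from a value not well above background, and is named only to complete the count.

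In DU145, where VDR and CYP24A1 were lower, 2 of 18 VDR targets were higher and 1 was lower past 2-fold, 9 were below 0, beside 52.7% of all genes, and the median was 0.08. CAMP, the antimicrobial peptide cathelicidin and a classical VDR target, went from 16.4 to 110 (6.52-fold higher). TXNIP, an inhibitor of thioredoxin, went from 73.5 to 418 (5.53-fold higher), and G0S2, an inhibitor of lipolysis, from 7060 to 1720 (4.22-fold lower). CAMP and CYP24A1, both VDR targets, thus went opposite ways within the same pair of arrays. The CAMP control value was near the lowest signal well above background on its array (8.65). Its log2 ratio was 1.08 with normexp, against 2.71 here.

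Of the vitamin D metabolism and transport genes, 1 of 5 was past 2-fold in PC3 and 2 of 6 in DU145. The endocytic receptor gene LRP2, which takes up the vitamin D carrier, went from 94.5 to 222 in PC3 (1.09). In DU145 CYP27B1, the enzyme that activates vitamin D, went from 391 to 195 (-1.04), and DHCR7, which turns the vitamin D precursor into cholesterol, from 8540 to 18900 (1.11). In DU145 VDR, CYP27B1 and CYP24A1 were therefore all lower, CYP27B1 by less than 2-fold with normexp (-0.76). Of the 6 listed genes compared in DU145, 4 were higher, among them CYP27A1 (0.26), and 2 lower. The median was 0.25, beside -0.02 over all genes. In PC3 3 of 5 were higher, with a median of 0.26 beside -0.06.

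Of 36 PPAR targets compared in PC3, 25 were below 0, beside 55.7% of all genes, with a median of -0.20 and 3 lower past 2-fold. VNN1, a pantetheinase, went from 726 to 32.6 (24.6-fold lower). The fatty acid activating enzyme gene ACSL1 went from 949 to 420 (-1.32), and the lipid droplet gene PLIN5 from 180 to 93.1 (-1.09). ANGPTL4 went the other way in the same cells. In DU145 13 of 34 were below 0, beside 52.7% of all genes, the median was 0.08, and CYP4A11, a fatty acid hydroxylase, went from 15.2 to 34.5 (1.14). GK, the glycerol kinase gene, was at least 2.44-fold lower, as its knockdown value of 8.33 was not well above background.

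ESRRA targets were below 0 for 9 of 10 in PC3 and 6 of 10 in DU145, beside 55.7 and 52.7% of all genes, and the DU145 count is near that share. Their medians were -0.24 and -0.19, beside -0.06 and -0.02 over all genes. Some PC3 ratios were small, such as SDHB (-0.02) and CS (-0.13). Scaling alone moved the PC3 median over all genes to -0.16 with median scaling and to 0.04 with the authors' values. Of these targets 1 passed 2-fold, TFF1 in PC3 (398 to 179, -1.29), a secreted peptide gene better known as an estrogen receptor target. Of the other receptors that pair with RXR, 3 of 8 were higher past 2-fold in DU145 and 0 in PC3, beside 2.36 and 3.88% of all genes. Their medians were 0.35 and -0.25, beside -0.02 and -0.06 over all genes. NR4A2 and NR4A1, immediate early orphan receptors, went from 211 to 675 (1.64) and from 28.6 to 88.5 (1.59), and NR1H4, the bile acid receptor, was at least 2.54-fold higher from a value not well above background. The second NR4A2 probe gave 1.80. NR4A1 and NR1H4 were dim on both PC3 arrays and not compared there, so the 8 genes compared differ between the lines. Coregulators had 2 of 20 lower past 2-fold in PC3 and 0 in DU145, beside 3.87 and 2.47% of all genes. These were NRIP1, a corepressor (3530 to 1530, -1.35), and PPARGC1B, a coactivator of ESRRA and the PPARs (315 to 171, -1.02), and their second probes gave -1.21 and -1.10.

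**Figure D3:**
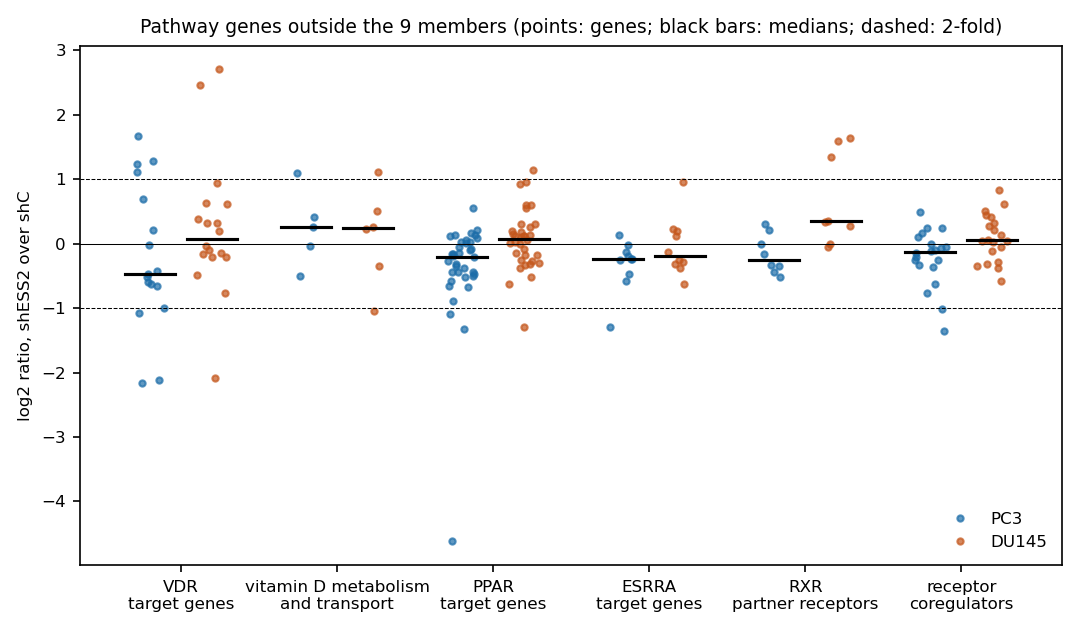
Log2 ratio of knockdown over control for the genes of the 6 lists, members left out, with PC3 in blue, DU145 in orange, a point per gene, black bars at the medians and dashed lines at 2-fold. VNN1, a PPAR target, is the lowest point at -4.62 in PC3, and CAMP, a VDR target, the highest at 2.71 in DU145.

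With normexp, 7 rather than 14 list genes passed 2-fold in PC3 and 5 rather than 10 in DU145. No longer past it in PC3 were DUSP10 (just under the line), CDKN1A (0.91), FBP1 (-0.88), PPARGC1B (-0.80), PLIN5 (-0.79), LRP2 (0.64) and TRPV5 (0.17). In DU145 these were NR4A1 (0.77), CYP27B1 (-0.76), NR1H4 (0.48), CYP4A11 (0.31) and GK (-0.24), and the second probes of CYP4A11 and GK were dim on both arrays. Still past 2-fold, but moved by over 1.5 times, were VNN1 (-3.08) and CD14 (-1.52) in PC3 and TXNIP (1.86) and CAMP (1.08) in DU145. Across both lines, limma with the cell line as a block called 0 of 17126 genes at an adjusted p under 0.05 (0%), with 1047 at an unadjusted p under 0.05 and 1 residual degree of freedom. Of 96 list genes fitted, 0 were called, the smallest adjusted p in limma was 0.746, and 5 had an unadjusted p under 0.05, namely CDKN1A, PPARGC1B, CYP4A11, IDH3A and IGFBP3. IDH3A, a subunit of a citric acid cycle enzyme, is named only to complete that count.

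The genes whose pattern over the 4 arrays was closest to that of VDR were sought among 14686 genes well above background on all of them. Likeness was the root mean square difference of log2 values, each gene centred on its own mean over the 4 arrays. FUT8-AS1, an antisense RNA, was closest (0.12), followed by the kinase gene IKBKE (0.16), the homeobox gene DLX1 (0.21), ARL9 (0.22) and the heparan sulfate enzyme gene HS3ST1 (0.23). FUT8-AS1 read 555, 257, 52.3 and 29.4 in PC3-shC, PC3-shESS2, DU145-shC and DU145-shESS2 cells, ratios of -1.25 and -0.87. IKBKE read 319, 93.9, 21.4 and 10.8, ratios of -1.91 and -1.03. All 5 kept the order of VDR, highest in PC3-shC and lowest in DU145-shESS2 cells. This follows from choosing them by likeness to VDR over the same 4 arrays, and it is a description only. In DU145-shESS2 cells IKBKE (10.8) and ARL9 (10.6) were close to the lowest signal well above background on that array (8.15).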

How the data were processed

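RNA of PC3 and DU145 cells with control or ESS2 shRNA was measured on 4 arrays, 1 per condition, grouped by their labels, from 0.1 µg of total RNA each per the labels. The authors deposited scanner output of Agilent Feature Extraction 12.1.0.3 (PC3) and 12.0.3.1 (DU145), in which the spot intensity is background-subtracted but not scaled between arrays and holds 3 significant digits. Their table of scaled intensity values was also deposited, and each column equals the processed signal times 1 constant (3.52 to 6.17). The study's methods name GeneSpring for analysis and give no further settings.

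Control spots and outlier spots were left out, spots of a probe were averaged, and log2 signals were centred on the 75th percentile of their array. Accessions of 35077 probes of 58201 were matched to RefSeq gene names (GRCh38.p14). A gene took its brightest probe over the 4 arrays. A gene entered a comparison if 1 or both arrays had it well above background. A dim value was raised to the lowest signal well above background on its array (8.15 to 9.02) where its own was lower, which gives a fold written as "at least". Genes past 2-fold were counted. limma took the genes that 2 or more arrays had well above background, and its p-values were adjusted by Benjamini-Hochberg at 0.05. Scripts were tested on simulated data.

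The members and gene lists were chosen with earlier results of these data known. Genes named from the lists are the 3 largest rises and falls past 2-fold in each line. Alternatives were median scaling, quantile normalization, the authors' scaled values, normexp with an offset of 50 on median spot signals, no or a stricter filter on dim genes, plain dim signals, the mean of probes, each probe alone, outliers kept, and for limma no block or the slide as a block. Promoter words were searched in the 250 bases before each RefSeq start site. The software was limma 3.58.1 in R 4.3.3, with pandas 2.3.3 and numpy 2.4.6 in Python 3.11.15.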

Additional observations from a re-analysis of the deposited data

How the results depend on the processing

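Knockdown and control were paired by cell line, the block of the limma fit, and no pairing by replicate number exists, as each group has 1 array. With normexp, 1 rather than 2 members stayed past 2-fold in DU145, 571 rather than 1299 genes in PC3 and 216 rather than 813 in DU145, and 7 rather than 14 and 5 rather than 10 list genes. With no filter on dim genes, the genes past 2-fold were 2624 in PC3 and 2020 in DU145. Median scaling moved the share of higher among genes past 2-fold in PC3 from 50 to 38.9% and the median over all genes from -0.06 to -0.16, the authors' values moved them the other way to 59.7% and 0.04, and normexp moved that share in DU145 from 48.8 to 64.4%. The cause was not tested. Single ratios of the members moved by no more than the spot SD in 167 comparisons with an alternative and by more in 66, and none past 2-fold changed sign. The 167 are no measure of stability. The filters, plain dim signals and kept outliers left bright members unchanged, as did the mean of probes for genes with 1 probe. For the control populations the larger SD of the 2 lines was used. limma called 0 genes in every alternative run, with 23 to 1313 genes at an unadjusted p under 0.05. The slide as a block equals the cell line as a block. With 1 array per condition no replicate could be left out, and signals under 100, such as those of PPARA in PC3 and the dimmer PPARD probe, carry the widest spot SD.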
